A study of Rattus norvegicus with 6 samples.

Results

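The genes described here encode granule and cytosolic proteins of neutrophils and their precursors, and they were followed library by library in rat spinal cord RNA-seq. Of the 22050 genes in the deposited table, 10 were taken by an exact match of the gene symbol: *Ctsg*, *Mpo*, *Elane*, *Prtn3*, *Np4*, *RatNP-3b*, *Lcn2*, *Camp*, *S100a8* and *S100a9*. They were picked with their levels in these 6 libraries in view, so the levels and differences given for them are a description and carry no test. All 10 had counts high enough to enter the fit across genes, and their counts were whole numbers in every library. The study compared healthy male Sprague–Dawley rats, aged 8 to 10 weeks, after spared nerve injury (SNI-NP rats, n = 3) or sham surgery (sham rats, n = 3), to ask which spinal cord genes change in neuropathic pain. SNI is a lesion of sciatic nerve branches that leaves the sural branch intact. Each library came from total RNA of spinal cord. The side, the segment, the time after surgery and any perfusion were not given in the sources used here, nor whether a library is 1 rat or a pool, and the methods name no further treatment shared by both groups.

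Neutrophils are made in bone marrow, where their granule proteins are produced in waves. The genes of the primary (azurophil) granules, which hold myeloperoxidase, the serine proteases and the alpha-defensins, are transcribed mainly in promyelocytes, and transcription of most of them has largely ceased in circulating neutrophils. Genes of the later granules, such as *Camp* and *Lcn2*, follow at the myelocyte and metamyelocyte stages, whereas *S100a8* and *S100a9*, whose proteins fill the cytosol, stay abundant in mature neutrophils. Healthy spinal cord holds few granulocytes, and *Lcn2* can also be made by reactive astrocytes.

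The totals were between 16670760 and 18151156 estimated counts per library, so that a gene without counts could still lie at 0.167 to 0.18 CPM (the count relative to the TMM-scaled library total), a limit for counting error only. Cell type lists were set beside the tissue label. The 12 tested microglial genes, the 9 oligodendrocyte genes, the 8 astrocyte genes and the 13 neuronal genes were found in every library. Since these genes had passed a filter on counts, this was a weak check. No list of peripheral nerve genes was read, so that cord was not told apart from nerve roots. SNI-NP 1 stood apart, with a summed level of neuronal genes of 2927.4 CPM against 5614.5 to 8027.0 CPM in the other 5 libraries. Genes of high level such as *Nefl*, *Nefm* and *Tubb3* weighed most in this sum and were lowest in SNI-NP 1. *Snap25* (177.2 CPM) and *Gad1* (45.4 CPM), among others, lay there within the range of the other libraries. Averaged over the 13 genes, log2 CPM minus each gene's own mean was -0.44 in SNI-NP 1 and next lowest, -0.28, in Sham 2. SNI-NP 1 also had the highest summed level of erythroid genes, 5245.6 CPM against 1079.2 to 2722.4 CPM. The members' fold changes and counts are also given without SNI-NP 1 where leaving it out took a member below 2-fold or changed a count by over 1.5 times, and the part of either difference in the granule gene levels was not tested. The labels give each library a replicate number and say nothing more of its origin, so that p-values measure only the spread between these samples.

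Sequences are shown for the 2 member defensin genes, *Np4* with the highest level per length of the members and *RatNP-3b* with the widest range, and for the gene between them. Rat alpha-defensins form a cluster on chromosome 16, in which *Np4*, *Defa11* and *RatNP-3b* are consecutive protein-coding genes in RefSeq (GRCr8). The promoter windows below run from 250 bases before to 50 bases after the annotated start, on the minus strand, and are RefSeq sequences of build GRCr8, which is not the build of the deposited counts. They lie at chr16:77199593-77199892, chr16:77237992-77238291 and chr16:77248928-77249227 in that order. Capitals mark matches to a C/EBP-like motif (TTGCNNAA) and a RUNX-like motif (TGTGGTT), each searched on both strands, so that the second appears in these windows as its reverse complement.
Np4: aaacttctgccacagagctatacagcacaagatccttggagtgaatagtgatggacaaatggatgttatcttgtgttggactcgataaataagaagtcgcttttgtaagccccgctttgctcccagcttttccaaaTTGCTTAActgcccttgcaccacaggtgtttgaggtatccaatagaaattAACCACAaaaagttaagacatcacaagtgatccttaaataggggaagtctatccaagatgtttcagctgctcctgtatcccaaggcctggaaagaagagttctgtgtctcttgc
Defa11: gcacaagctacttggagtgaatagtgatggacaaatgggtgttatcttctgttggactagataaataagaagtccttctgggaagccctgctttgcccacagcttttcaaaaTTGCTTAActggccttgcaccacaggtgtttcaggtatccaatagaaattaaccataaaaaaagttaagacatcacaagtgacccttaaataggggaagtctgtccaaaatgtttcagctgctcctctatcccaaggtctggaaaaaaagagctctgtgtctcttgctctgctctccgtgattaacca
RatNP-3b: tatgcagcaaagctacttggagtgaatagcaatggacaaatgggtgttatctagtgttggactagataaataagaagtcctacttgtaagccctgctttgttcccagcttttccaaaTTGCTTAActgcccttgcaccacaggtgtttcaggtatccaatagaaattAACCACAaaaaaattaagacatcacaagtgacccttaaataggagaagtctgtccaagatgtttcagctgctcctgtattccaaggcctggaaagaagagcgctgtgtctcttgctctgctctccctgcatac

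The windows of *Np4* and *RatNP-3b* were 92.2% identical over their aligned bases (259 of 281), and that of *Defa11* was 91.3% identical to *Np4* and 91.8% identical to *RatNP-3b*. *Defa11* was at 0.115 CPM at most, with 0 counts in 3 libraries. The C/EBP-like match was present in all 3 windows, at -114 to -107 bases from the start in *Np4*, -138 to -131 in *Defa11* and -133 to -126 in *RatNP-3b*. The RUNX-like match stood at -64 to -58 in *Np4* and -83 to -77 in *RatNP-3b*, and no match to those letters was found in the window of *Defa11*. Promoter windows were found for 8 of the 10 members, all but *Elane* and *S100a8*. The C/EBP-like letters occurred in 3 of these 8 (*Np4*, *RatNP-3b* and *Lcn2*) and in 10.6% of all 33469 promoters, and the RUNX-like letters in 2 of the 8 and in 5.57% of all promoters. A PU.1-like motif (AGGAAGT, both strands) was found in *Mpo* at -44 to -38 and in *Prtn3* at -92 to -86, and in 8.41% of all promoters. No 2 of these motifs overlapped in a member window, and a match describes letters, not a bound site. Elsewhere in the genome, *Elane* and *Prtn3* are next to each other on chromosome 7, as are *S100a8* and *S100a9* on chromosome 2.

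Every member was detected in every rat, sham rats included, and all 10 had a higher mean in SNI-NP rats. The rats of each group differed so much from each other, however, that 8 members were higher in Sham 3 than in SNI-NP 2, in *Mpo* by less than counting error. The summed level of the 10 genes was 45.7, 67.2 and 139.1 CPM in Sham 1, 2 and 3, and 226.8, 105.6 and 177.9 CPM in SNI-NP 1, 2 and 3. The group means were 84.0 ± 48.9 CPM and 170.1 ± 61.0 CPM (n = 3 per group, SD), a ratio of 2.03. Within the sham rats alone the highest sum was 3.04 times the lowest, and over all 6 rats 4.96 times. In bulk tissue, fewer cells of a type and less RNA per cell cannot be told apart.

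**Figure D1:**
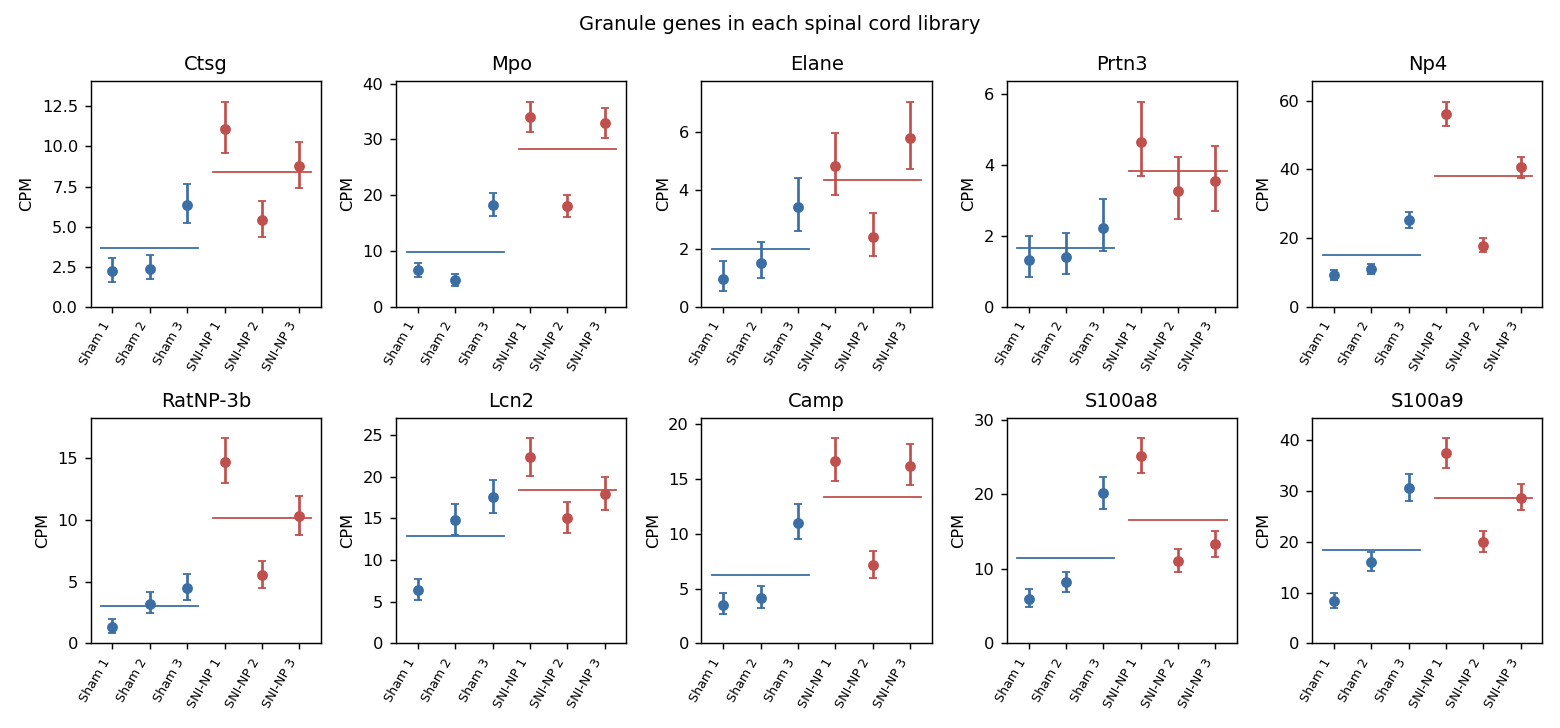
CPM (counts relative to the TMM-scaled library total, linear axis from 0) of each granule gene in each library, sham rats in blue and SNI-NP rats in red. Bars are 95% Poisson intervals of the count, which cover counting error only, and horizontal lines are group means. Sham 3 was the highest sham rat and SNI-NP 2 the lowest SNI-NP rat in all 10 panels.

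Among the primary granule genes, *Mpo* (ENSRNOG00000008310) encodes myeloperoxidase, which makes hypochlorous acid. Its level was 6.54, 4.73 and 18.3 CPM in the sham rats and 34.0, 18.0 and 32.9 CPM in the SNI-NP rats. Sham 3 was level with SNI-NP 2 within counting error, and the other 2 sham rats lay below every SNI-NP rat. The means were 9.85 ± 7.35 CPM in sham rats against 28.3 ± 8.91 CPM in SNI-NP rats (n = 3 per group, SD), and the fitted log2 fold change was 1.52 (standard error, SE, 0.50). It was 2.30 without Sham 3 and 1.37 without SNI-NP 1.

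The 3 serine protease genes ordered the rats much as *Mpo* did. *Ctsg* (ENSRNOG00000020647), which encodes cathepsin G, was at 2.22, 2.37 and 6.34 CPM in the sham rats and 11.1, 5.39 and 8.75 CPM in the SNI-NP rats. Here too Sham 3 exceeded SNI-NP 2, with overlapping Poisson intervals of 5.21 to 7.65 and 4.37 to 6.57 CPM. The log2 fold change of *Ctsg* was 1.21 (SE 0.46), or 0.95 without SNI-NP 1. *Elane* (ENSRNOG00000033685), the gene of neutrophil elastase, was at 0.961, 1.52 and 3.43 CPM in the sham rats and 4.83, 2.39 and 5.8 CPM in the SNI-NP rats. It was the one member with its highest level in SNI-NP 3, and its counts were small, from 16 in Sham 1 to 100 in SNI-NP 3. The Poisson intervals of its 2 highest libraries, 3.85 to 5.98 and 4.72 to 7.05 CPM, overlapped. *Prtn3* (ENSRNOG00000029814), which encodes proteinase 3, was at 1.32, 1.41 and 2.21 CPM in the sham rats and 4.66, 3.28 and 3.54 CPM in the SNI-NP rats. Its groups did not overlap, and its sham rats differed by 1.67 times, the narrowest sham range of the 10 members. The log2 fold change of *Prtn3* was 1.21 (SE 0.31) and that of *Elane* 1.13 (SE 0.52). Summed over the 3 proteases, the level was 4.5, 5.3 and 12 CPM in the sham rats and 20.6, 11.1 and 18.1 CPM in the SNI-NP rats.

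The alpha-defensins are small cationic peptides that disrupt microbial membranes. *Np4* (ENSRNOG00000028707) was at 9.13, 10.9 and 25.1 CPM in the sham rats and 56.1, 17.8 and 40.6 CPM in the SNI-NP rats. SNI-NP 2 lay below Sham 3, whereas SNI-NP 1 and 3 lay above every sham rat. *RatNP-3b* (ENSRNOG00000038135) was at 1.32, 3.21 and 4.48 CPM in the sham rats and 14.7, 5.5 and 10.3 CPM in the SNI-NP rats. Its groups did not overlap, and it had the widest range of the members over the 6 rats, 11.1 times from 22 counts in Sham 1 to 256 in SNI-NP 1. The log2 fold change was 1.34 (SE 0.50) for *Np4*, 0.96 without SNI-NP 1, and 1.75 (SE 0.50) for *RatNP-3b*, 1.39 without SNI-NP 1. Reads of defensin genes this alike could be assigned to the wrong copy. Their levels are therefore less certain than those of the other members, although neither gene had a count that was not whole. Likeness was read from promoter windows, and transcripts were not compared. The ratio of *Np4* to *RatNP-3b* counts was 6.91, 3.39 and 5.61 in Sham 1 to 3 and 3.81, 3.24 and 3.95 in SNI-NP 1 to 3. It overlapped between the groups and varied more among sham rats.

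Of the later granule genes, *Camp* (ENSRNOG00000020733), which encodes the cathelicidin antimicrobial peptide, was at 3.54, 4.17 and 11 CPM in the sham rats and 16.6, 7.11 and 16.2 CPM in the SNI-NP rats. Its order of rats was that of the summed level, with a log2 fold change of 1.09 (SE 0.50), or 0.90 without SNI-NP 1. *Lcn2* (ENSRNOG00000013973), which encodes a lipocalin that binds bacterial siderophores, was at 6.36, 14.8 and 17.5 CPM in the sham rats and 22.3, 15 and 17.9 CPM in the SNI-NP rats. Apart from the low Sham 1 and the high SNI-NP 1, its levels spanned only 14.8 to 17.9 CPM in the other 4 libraries. The log2 fold change of *Lcn2* was 0.51 (SE 0.35), the smallest of the 10, and fell to 0.17 without Sham 1. The ratio of *Camp* to *Lcn2* was lowest in Sham 2, at 0.282, and highest in SNI-NP 3, at 0.906.

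*S100a8* and *S100a9* encode the calcium-binding subunits of calprotectin, a cytosolic protein that withholds zinc and manganese from microbes. *S100a8* (ENSRNOG00000011557) was at 5.94, 8.17 and 20.1 CPM in the sham rats and 25.1, 11.1 and 13.3 CPM in the SNI-NP rats. *S100a9* (ENSRNOG00000011483) was at 8.34, 16.0 and 30.6 CPM in the sham rats and 37.4, 20.0 and 28.6 CPM in the SNI-NP rats. In both genes Sham 3 lay above 2 of the 3 SNI-NP rats, which was seen in no other member. For *S100a9*, however, the Poisson intervals of Sham 3 and SNI-NP 3 overlapped, at 28.0 to 33.3 and 26.2 to 31.3 CPM. In *Lcn2* these libraries were level within counting error, at 17.5 and 17.9 CPM. The log2 fold changes of *S100a8* and *S100a9* were 0.53 (SE 0.49) and 0.65 (SE 0.44), and without SNI-NP 1 they were 0.09 and 0.41. The ratio of *S100a9* to *S100a8* averaged 1.63 ± 0.292 for sham and 1.82 ± 0.332 for SNI-NP rats (n = 3 per group, SD), with overlapping values.

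Between genes, levels were compared as the deposited FPKM (counts scaled by gene length and library total). The mean FPKM over the 6 rats was 52.3 for *Np4*, 44.2 for *S100a9*, 36.6 for *S100a8*, 17.5 for *Lcn2*, 13 for *Camp*, 12 for *RatNP-3b*, 7.92 for *Mpo*, 5.93 for *Ctsg*, 3.23 for *Elane* and 2.79 for *Prtn3*. Of the 9 neighbouring pairs in this order, 3 held in all 6 rats: *S100a9* above *S100a8*, *S100a8* above *Lcn2*, and *Ctsg* above *Elane*. The other pairs changed places between rats. *Np4* exceeded *S100a9* in only 1 of the 3 sham rats and in 2 of the 3 SNI-NP rats.

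The log2 fold changes of the members ran from 0.51 to 1.75, with a median of 1.17, against a median of 0.006 over the 14426 genes tested. In 7 members the mean of the SNI-NP rats was fitted at more than 2-fold above that of the sham rats, which held for 1.25% of all genes tested. That count was 4 without SNI-NP 1, Sham 1 or Sham 2 and 9 without Sham 3. The share of all genes past 2-fold was not counted in those fits. All 3 SNI-NP rats lay above all 3 sham rats in 2 members (*Prtn3* and *RatNP-3b*) and in 10.3% of genes. With more than a 2-fold change and p under 0.05 before adjustment in edgeR's quasi-likelihood test, 5 members (*Mpo*, *Ctsg*, *Prtn3*, *Np4* and *RatNP-3b*) were higher, against 0.742% of genes (2.27% in either direction). Without SNI-NP 1 it was 3 members (*Mpo*, *Prtn3* and *RatNP-3b*), as it was without Sham 2, and it was 2 without Sham 1 or SNI-NP 3 and 9 without Sham 3. Over all genes the number was 102 of 14577 without SNI-NP 1 and 153 of 14593 without Sham 2. It was 85 of 14616 without Sham 1, 91 of 14592 without SNI-NP 3 and 130 of 14616 without Sham 3. After Benjamini-Hochberg adjustment 0 members were called by edgeR, as were 0.0% of genes, and 1 member (*RatNP-3b*) by DESeq2, which called 0.707% of genes. Because the members were chosen from these values, nothing is read from these counts. In 9 of the 10 members, all but *Prtn3*, the highest sham rat exceeded the lowest sham rat by a larger factor than the SNI-NP mean exceeded the sham mean. In *RatNP-3b* the margin was small, 3.39 against 3.37 times. The share of all genes for which this held was not counted. Their median sham range was 0.37 on the log2 scale beside a median log2 fold change of 0.006. It is therefore not read as a trait of the members.

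**Figure D2:**
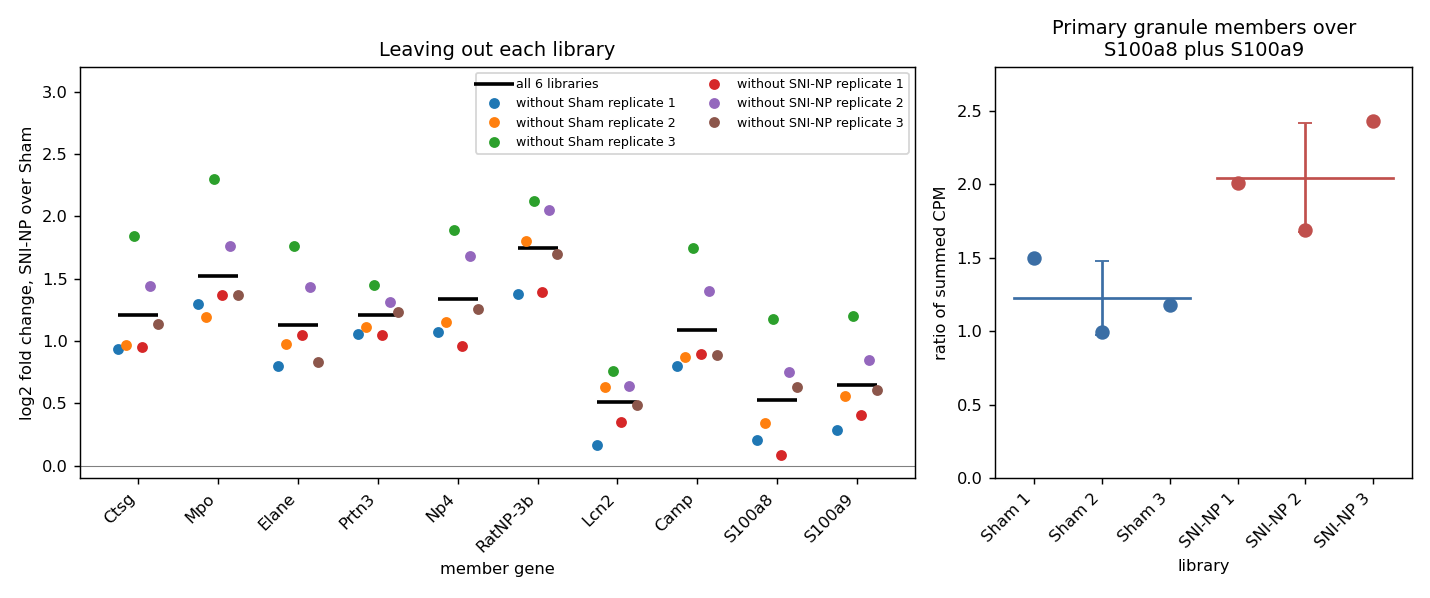
Left, fitted log2 fold change (SNI-NP over sham) of each granule gene with all 6 libraries (black bars) and with each library left out (coloured points); right, ratio of the summed CPM of the 6 primary granule genes to that of *S100a8* plus *S100a9* in each library, with group mean (horizontal line) and SD (vertical bar, drawn at replicate 2). All log2 fold changes stayed above 0, the values without Sham 3 being the highest for all 10 genes, and the ratio was 0.998 to 1.5 for sham and 1.69 to 2.43 for SNI-NP rats.

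Sham 1 was the lowest of all 6 rats in 9 members (Sham 2 in *Mpo*), and SNI-NP 1 the highest in 9 members (SNI-NP 3 in *Elane*). Both held at once for 8 members, and for 5.56% of all genes tested. The median log2 difference of the members from the median of the other 5 libraries was -1.47 in Sham 1, -1.14 in Sham 2, 0.36 in Sham 3, 1.03 in SNI-NP 1, -0.25 in SNI-NP 2 and 0.78 in SNI-NP 3. No member was more than 4-fold above or below the median of the other 5 libraries in any library, which held for 3.51% of all genes in at least 1 library. The members thus graded the rats from low to high, with 1 to 3 members past 4-fold when Sham 1, Sham 2, Sham 3, SNI-NP 2 or SNI-NP 3 was left out. The summed level ordered the rats as SNI-NP 1, SNI-NP 3, Sham 3, SNI-NP 2, Sham 2 and Sham 1 from high to low, and 4 members (*Ctsg*, *Np4*, *Lcn2* and *Camp*) had exactly this order, as did 37 of the 14426 genes (0.256%).

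The spread within groups was itself wide for these genes. The sham range exceeded 2-fold in 9 members, against 11.6% of genes, and the SNI-NP range exceeded 2-fold in 6 members, against 14.9%. The median sham range was 1.64 on the log2 scale for the members and 0.37 for all genes, and the median SNI-NP range was 1.1 and 0.38. This was also so in members with many counts, since *Mpo*, *Np4* and *S100a9*, with 1991, 2773 and 2454 counts over the 6 libraries, had sham ranges of 3.86, 2.76 and 3.66 times.

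**Figure D3:**
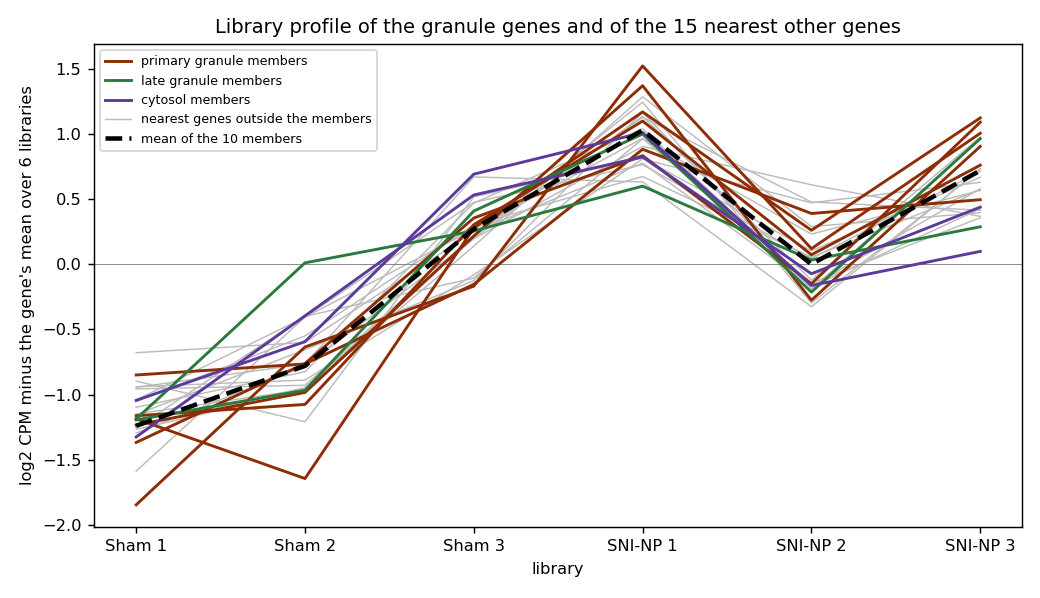
Log2 CPM of each granule gene minus the mean of that gene over the 6 libraries (vertical axis), by library, with primary granule genes in brown, later granule genes in green, *S100a8* and *S100a9* in purple, their mean as a dashed line, and the 15 nearest other genes in grey. The mean profile ran from -1.24 in Sham 1 through -0.78, 0.27, 1.03 and 0.0 to 0.72 in SNI-NP 3.

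Primary granule genes and the calprotectin genes did not move in a fixed proportion. The 6 primary granule genes summed to 21.5, 24.1 and 59.9 CPM in the sham rats and 125.4, 52.4 and 101.8 CPM in the SNI-NP rats. *S100a8* and *S100a9* together were at 14.3, 24.2 and 50.6 CPM in the sham rats and 62.5, 31.1 and 41.9 CPM in the SNI-NP rats. The ratio of the former to the latter was 1.5, 0.998 and 1.18 in Sham 1 to 3 and 2.01, 1.69 and 2.43 in SNI-NP 1 to 3. It did not overlap between the groups, unlike either sum, with means of 1.23 ± 0.256 and 2.04 ± 0.373 (n = 3 per group, SD). The gap was narrow, between 1.5 in Sham 1 and 1.69 in SNI-NP 2, whose sums lay below those of Sham 3. The ratio was formed from genes chosen on these values and was looked at after them, so that it is given without a test. How often ratios of other genes separate the groups was not counted. *Mpo* over *S100a9* gave the same separation, 0.296 to 0.784 for sham and 0.9 to 1.15 for SNI-NP rats, whereas *Np4* over *S100a9* overlapped between the groups, with 0.889 in SNI-NP 2 and 1.09 in Sham 1.

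Other genes of granulocytes and their precursors, not all of them specific to neutrophils, were read from 5 lists of primary granule, defensin, late granule, receptor and signalling, and transcription factor genes. Of 73 genes listed, 66 were in the table and 43 had counts high enough to be tested. With edgeR's quasi-likelihood test, 4 were more than 2-fold higher in SNI-NP rats with p under 0.05 before adjustment (9.3%, against 0.742% of all genes) and 0 were lower. No gene of these lists passed after adjustment over all genes, by edgeR (smallest adjusted p 0.436) or by DESeq2, and 6 had an unadjusted edgeR p under 0.05 at any fold. By list, 0 of 5 primary granule genes, 1 of 1 defensin gene, 1 of 14 late granule genes, 1 of 15 receptor and signalling genes and 1 of 8 transcription factor genes were called. The count of 4 depended on single libraries, being 0 without SNI-NP 1, 10 without Sham 3 and 2 without Sham 1 or Sham 2. Over all genes, 102 of 14577 were called higher without SNI-NP 1 and 130 of 14616 without Sham 3. It was 85 of 14616 without Sham 1 and 153 of 14593 without Sham 2. Sham 1 was lowest and SNI-NP 1 highest in 16 of the 43 genes (37.2%), against 5.56% of all genes. The lists were drawn up with earlier results of these data known, and the median log2 fold change over the 43 genes was 0.38.

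The 4 genes called were *Defa5*, *Padi4*, *Adam8* and *Gata1*. *Defa5* (ENSRNOG00000030093), another alpha-defensin gene, was at 5.34, 6.59 and 14.7 CPM in the sham rats and 28.3, 11.8 and 25.3 CPM in the SNI-NP rats, which is the order of rats seen in the summed level. By edgeR the log2 fold change was 1.29 (SE 0.46) with an adjusted p of 0.436, and the ratio of *Np4* to *Defa5* counts stayed between 1.51 and 1.98 in all 6 rats. Whether reads were shared between *Defa5* and the member defensins was not tested, and no promoter window was found for *Defa5*. *Padi4*, whose enzyme citrullinates histones in neutrophil extracellular traps, was at 0.794 ± 0.473 CPM in sham rats against 2.08 ± 0.894 CPM in SNI-NP rats (n = 3 per group, SD), a log2 difference of 1.38 with an edgeR adjusted p of 0.438. *Adam8*, a membrane metalloprotease gene, had a log2 fold change of 1.15, and *Gata1*, a transcription factor gene of erythroid and eosinophil precursors, one of 2.32, each with an edgeR adjusted p of 0.436. *Gata1* had 0 counts in Sham 2 and 3.59 CPM in SNI-NP 1, the libraries with the lowest and the highest summed erythroid level, and without this gene of other lineages 3 genes were called.

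Several markers of neutrophils were at or near 0, and the genes of this paragraph other than *Lyz2* and *Itgam* were picked out after their values were seen. *Cxcr1* had 0 counts in all 6 libraries, *Ltf* was at 0.12 CPM in Sham 1 and 0 elsewhere, and *Fpr1* was at 0.169 CPM at most. *Bpi* and *Prss57*, both of the primary granule list, did not exceed 0.058 and 0.174 CPM. *Ngp*, the neutrophilic granule protein gene, had a mean of 21.9 FPKM, within the range of the members, and was at 6.06, 13.1 and 28.5 CPM in the sham rats and 49.8, 24.1 and 24.7 CPM in the SNI-NP rats. *Cxcr2*, a chemokine receptor gene of mature neutrophils, was at 0.06 to 0.815 CPM in sham rats against 0.92 to 1.04 CPM in SNI-NP rats, from 1 to 18 counts. *Lyz2*, which macrophages and microglia also express, was at 541.9 to 1381.7 CPM in sham rats against 626.9 to 762.9 CPM in SNI-NP rats, and *Itgam*, which microglia express too, differed by 0.06 on the log2 scale (SE 0.26, edgeR adjusted p = 0.945). The 10 members and *Ngp* were thus present in every library, whereas markers of each kind (*Ltf*, *Bpi* and *Prss57* of granules, *Cxcr1* and *Fpr1* of receptors) were at or near 0. *Csf3r*, the receptor gene of the granulocyte growth factor G-CSF, was in contrast at 5.58 to 11.6 CPM.

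**Figure D4:**
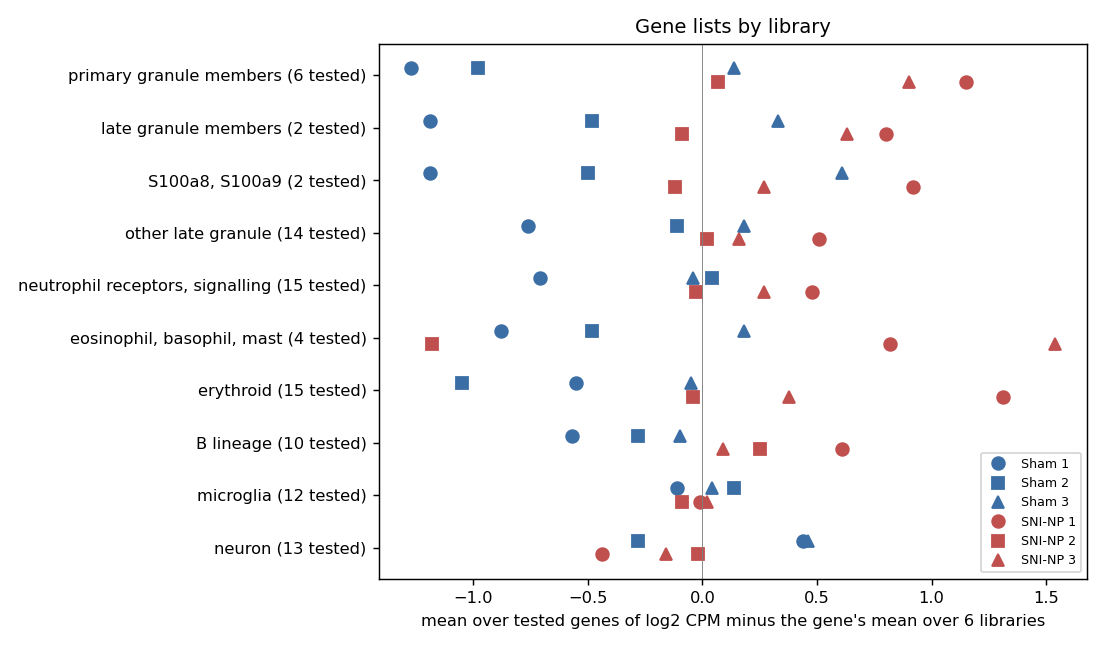
Mean over the tested genes of each list of log2 CPM minus the mean of the gene over the 6 libraries (horizontal axis), 1 point per library (sham rats blue, SNI-NP rats red; circles, squares and triangles for replicates 1, 2 and 3). The primary granule genes spanned -1.27 to 1.15, the microglial genes -0.11 to 0.14, and the eosinophil list had its extremes in SNI-NP 2 (-1.18) and SNI-NP 3 (1.54).

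Markers of other cell types were set beside the members. Of the 12 microglial and 10 monocyte and macrophage genes tested, 0 were called, 0 had an unadjusted p under 0.05 at any fold by edgeR, and 0 were called by DESeq2. The microglial list (median log2 fold change -0.04) summed to 487.8 to 672.2 CPM in sham rats against 547.2 to 610.4 CPM in SNI-NP rats, and the monocyte and macrophage list to 133.4 to 216.2 and 110.8 to 176.2 CPM. The erythroid list moved with the members in part, with a median log2 fold change of 1.1. By edgeR, 9 of 15 tested genes were more than 2-fold higher in SNI-NP rats with p under 0.05 before adjustment, against 0.742% of all genes. Without SNI-NP 1 it was 3 of the list, against 102 of 14577 genes. After adjustment edgeR called 0 and DESeq2 2 of the 15, *Car1* and *Slc4a1*. The list summed to 1079.2 to 2472.3 CPM in sham rats against 2234.2 to 5245.6 CPM in SNI-NP rats, and its highest library was SNI-NP 1 in 14 of the 15 genes. *Hbb*, which encodes beta-globin, was at 465.4, 299.6 and 643.4 CPM in the sham rats and 1364.8, 739.2 and 610.1 CPM in the SNI-NP rats. *Hbb* was therefore higher in SNI-NP 2 than in SNI-NP 3, as were *Hba-a1*, *Hba-a2* and *Alas2*, whereas every member was lowest in SNI-NP 2 among the SNI-NP rats. The remaining erythroid genes tested were, like the members, lower in SNI-NP 2 than in SNI-NP 3. The mean over the 15 genes of log2 CPM minus each gene's own mean was -0.04 in SNI-NP 2 and 0.38 in SNI-NP 3. Of the B lineage list, 4 of 10 tested genes were called in the same way (1 without SNI-NP 1, and 1, *Cd79b*, by DESeq2 after adjustment), and it summed to 48.2 to 61.8 CPM in sham rats against 61.7 to 78.0 CPM in SNI-NP rats, with *Vpreb3* at 0 counts in 4 libraries. The part of blood or of these other cells in the levels of the granule genes was not tested.

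Eosinophil granule genes followed the members only partly. *Prg2*, the gene of eosinophil major basic protein, was at 6.3, 6.87 and 13.1 CPM in the sham rats and 23.6, 5.11 and 46.4 CPM in the SNI-NP rats. *Epx*, which encodes eosinophil peroxidase, was at 3.54, 4.68 and 11.1 CPM in the sham rats and 18.5, 2.61 and 38.7 CPM in the SNI-NP rats. Both were higher in Sham 3 than in the other sham rats, as the members were, but had their highest value in SNI-NP 3 and their lowest in SNI-NP 2. The ratio of *Epx* to *Mpo* accordingly ran from 0.145 in SNI-NP 2 to 1.17 in SNI-NP 3, and in the sham rats from 0.541 to 0.988. Of the 4 genes of the eosinophil, basophil and mast cell list that were tested, 0 had an unadjusted p under 0.05 by edgeR (smallest adjusted p 0.478) and 0 were called by DESeq2. The median log2 fold change of these 4 was 1.5, and *Cpa3*, *Tpsb2* and *Il5ra* had 0 counts in some libraries.

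The genes outside the members with the nearest profile over the 6 libraries were found by the root mean square difference of centred log2 CPM from the mean profile. In order of distance they were *Nlrp12*, *Defa5*, *Pglyrp1*, *Mcemp1*, *Hemgn*, *Padi4*, *Mmp8*, *Fabp4*, *AC118772.1*, *Fcnb*, *Smoc1*, *Fcrla*, *LOC691141*, *Blk* and *Nfe2*. Their distances were 0.134 to 0.297, against a median of 0.828 over all genes tested, and 5 of the 15 stood in the granulocyte lists. *Defa5* (0.145), *Pglyrp1* (0.199), *Mmp8* (0.236) and *Fcnb* (0.25) encode granule proteins. *Mmp8*, neutrophil collagenase, was at 4.74, 7.44 and 11.9 CPM in the sham rats and 19.4, 8.94 and 12.7 CPM in the SNI-NP rats. *Fcnb*, which encodes ficolin-B, was at 4.8, 11 and 20.4 CPM in the sham rats and 25, 15.1 and 24.1 CPM in the SNI-NP rats. Not all of the 15 were granulocyte genes, since *Hemgn* belongs to the erythroid list, *Blk* encodes a B cell kinase and *Fabp4* a fatty acid-binding protein. Of the members, *Ctsg* lay closest to their mean profile (0.133, with no other gene closer), and *Lcn2* (0.409) and *Mpo* (0.408) lay farthest, each with 44 other genes closer than it.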

How the data were processed

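RNA-seq of spinal cord was analysed in 6 libraries, grouped by the sample labels. Per the labels, the submitters' processing notes name FastQC, STAR and HTSeq, and the paper's methods name the genome release Rat6 and the keeping of unique sequences; versions, annotation and use of strand are not given in the sources used here. For each of 22050 genes the authors deposited an unnormalized estimated count. The authors deposited FPKM as well, scaled by gene length and library total. Although HTSeq gives whole counts, 1316 to 1386 genes per library had counts that were not whole. For the present work the counts were rounded, filtered with filterByExpr, scaled by TMM and tested by edgeR version 4.0.16 (quasi-likelihood, condition as the single term) in R version 4.3.3, with Benjamini-Hochberg adjustment over 14426 genes. Levels are TMM-scaled CPM, and profiles use log2 CPM with a prior count of 2. Poisson intervals (95%) and the limit for 0 counts (3 counts) cover counting error only, and molecules were not tagged individually. Group comparisons of 3 against 3 rest on this fit. The test was checked on simulated data.

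The members and gene lists were chosen with earlier results of these data known. Genes named are the 10 members, from each list up to 4 of the highest level and up to 4 called with the smallest p, and the 15 nearest profiles; exceptions are marked. Alternatives were DESeq2 version 1.42.0, other scalings, filters and prior count, FPKM, the replicate block and leaving out each library. RefSeq promoters (GRCr8) were matched by symbol, and identities come from pairwise alignment in Biopython version 1.88.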

Additional observations from a re-analysis of the deposited data

How the results depend on the processing

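The median log2 fold change of the 10 members was 1.17 and kept its direction in all 14 alternatives (0.87 to 1.76 when a library was left out, the highest without Sham replicate 3), and the log2 ratio of the summed levels, 1.02, kept its direction in its 10 alternatives (0.72 to 1.59 when a library was left out). Each member's log2 fold change kept its sign in its 13 alternatives, with *S100a8* as low as 0.09 without SNI-NP replicate 1. Across all genes, those with a 2-fold change and an adjusted p under 0.05 numbered 0 by edgeR and 102 by DESeq2, and 0 to 206 when a library was left out (206 without SNI-NP replicate 1, 2 without Sham replicate 2). At an unadjusted p it was 327, and 258 to 804 (804 without SNI-NP replicate 1). Of the other granulocyte genes 4 were called, 2 with at least 10 counts in every library, and 0 to 10 when a library was left out. The number of members more than 4-fold from the median of the other libraries was 0, 1 with a prior count of 0.5, and 0 to 3 when a library was left out (3 without Sham replicate 3, 2 without SNI-NP replicate 2). The causes were not tested, and fewer samples enter each fit without a library. Deviations of rats with equal replicate numbers correlated at 0.214, -0.143 and 0.0538, and those with unequal numbers at -0.244 to 0.222. Whether the rats were paired is not given in the labels, and so few values cannot settle it. With the replicate number as a block the median of the members was 1.21, with 423 unadjusted and 0 adjusted calls and 4 other granulocyte genes. *Elane* and *Prtn3* had 16 to 38 counts in some sham libraries, and differences between such libraries were limited by depth.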

Other observations

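Genes of precursor cells of other lineages were read from lists outside the comparison of the granule genes. Of 9 tested marrow progenitor genes 0 had an unadjusted p under 0.05 at any fold by edgeR, and 0 were called by DESeq2. Their summed level was 181.1 to 229.4 CPM in sham rats against 202.5 to 207.7 CPM in SNI-NP rats. *Cd48*, at 84.5 to 125.9 CPM, and *Kit*, at 36.6 to 54.6 CPM, led this sum, whereas *Myb* was at 0.961 to 2.3 CPM. The sum therefore says little of the genes of low level, and numbers of progenitor cells were not measured. Of 13 tested proliferation genes 1 was past a 2-fold change with an unadjusted edgeR p under 0.05, *Aurkb*, which encodes aurora kinase B and was also called by DESeq2 after adjustment. Averaged over the 13, log2 CPM minus each gene's own mean was 0.69 in SNI-NP 1 and -0.35 to 0.06 in the other libraries. *Mki67*, a marker of cycling cells, was at 9.25, 10.9 and 9.72 CPM in the sham rats and 19.2, 2.0 and 5.51 CPM in the SNI-NP rats. SNI-NP 2 thus lay below every sham rat for *Mki67*, as it did for *Top2a*, *Bub1*, *Tpx2*, *Kif11* and *Tyms*. It lay above every sham rat for *Aurkb*, at 15.4 CPM against 3.9 to 5.07 CPM, and for *Cdk1*, *Mcm5*, *Pcna*, *Birc5* and *Rrm2*. The list was therefore split in this library. *Itga2b*, the platelet integrin gene, was at 2.64, 3.55 and 3.73 CPM in the sham rats and 5.81, 3.67 and 7.83 CPM in the SNI-NP rats, with its highest level in SNI-NP 3, as for *Epx* and *Prg2*. Of the 5 tested megakaryocyte and platelet genes and the 9 bone genes 0 were past these limits by edgeR or DESeq2. In each list 1 gene (*Itga2b* and *Col1a1*) had an unadjusted edgeR p under 0.05 at a smaller fold. *Bglap* of the bone list was at 1.98, 0.338 and 0.815 CPM in the sham rats and 5.12, 0.722 and 2.67 CPM in the SNI-NP rats. Its log2 fold change was 1.44 (SE 0.80). Its SNI-NP rats were ordered as in most members, but its highest sham rat was Sham 1. *Mki67*, *Itga2b* and *Bglap* were picked out after their values were seen. *Slc4a1*, the erythrocyte anion exchanger gene, was at 19.5, 12.1 and 30.1 CPM in the sham rats and 128.0, 40.0 and 53.3 CPM in the SNI-NP rats.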
